A study of Mus musculus with 2 samples.

Results

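Wide peaks of the thymus were the deposited DNase-seq peaks at least 400 bp long that overlapped a peak of the other library by at least 1 bp. They were selected on 2 measured values, the width and the overlap, in each library's shorter peak list and on autosomes only, so both values are described below and support nothing by themselves. Replicate 1 held 2678 wide peaks among 49224 autosomal peaks (5.44%), and replicate 2 held 3040 among 48581 (6.26%), a mean of 2859 ± 256 (SD, n = 2). They covered 1375698 bp and 1589703 bp, which was 13.0% and 14.5% of all bases counted over the autosomal peaks. Of the peaks at least 400 bp long, 93 in replicate 1 and 435 in replicate 2 overlapped no peak of the other library and were left out.

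The study holds 2 DNase-seq libraries of whole thymus, the organ in which T cells mature, from adult female B6CASTF1/J mice aged 18 to 20 months. B6CASTF1/J is the first-generation hybrid of the B6 and CAST inbred strains. Both libraries belong to 1 group, for which no treatment is named, and carry the same donor record with different tissue records, and nothing states that they came from separate animals. The spread between them may therefore be technical, and no other age, sex, strain or tissue was compared. Because the members were chosen on their own values and there is only 1 group, no test was run and every difference below is a description.

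DNase I cuts DNA where nucleosomes are displaced, so a peak of cuts marks an accessible stretch such as a promoter, an enhancer or an insulator. Inside a peak, a bound protein shields a few bases from the enzyme and leaves a footprint. Many mammalian promoters lie in CpG islands, stretches rich in C, G and the CpG dinucleotide that tend to be free of nucleosomes over a longer distance than a single enhancer core. In whole tissue, accessibility in fewer cells and lower accessibility per cell cannot be told apart.

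Of the wide loci with at least 300 bases common to both libraries and free of annotated exons, 2 are shown here by 300 reference bases each (mm10, plus strand), a distal one with many bases under footprints and a promoter one with none. Capitals mark bases inside footprints of both libraries. Maml3, which encodes a coactivator of Notch, names a distal locus whose centre lay 2695 bp from the nearest protein-coding start site. Its window, chr3:52102502-52102801, held 77 such bases in 6 stretches, with a GC content of 63.7% and 20 CpGs. Foxp1, which encodes a forkhead transcription factor of lymphocytes, names a promoter locus. Its window, chr6:99521501-99521800, held 0 such bases, with 35 CpGs and a GC content of 67.7%. The widest peaks of this locus held 7 and 12 footprints in replicates 1 and 2. The pair does not stand for distal and promoter loci in general. A distal window at Fam78a held 0 such bases, and a promoter window at Stk24 held 53.
Maml3: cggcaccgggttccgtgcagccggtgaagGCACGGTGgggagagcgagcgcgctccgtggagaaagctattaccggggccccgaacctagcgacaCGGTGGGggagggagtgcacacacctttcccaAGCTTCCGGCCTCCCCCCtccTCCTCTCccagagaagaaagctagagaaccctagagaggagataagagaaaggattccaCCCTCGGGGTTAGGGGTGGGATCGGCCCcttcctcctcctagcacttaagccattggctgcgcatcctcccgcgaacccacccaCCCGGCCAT
Foxp1: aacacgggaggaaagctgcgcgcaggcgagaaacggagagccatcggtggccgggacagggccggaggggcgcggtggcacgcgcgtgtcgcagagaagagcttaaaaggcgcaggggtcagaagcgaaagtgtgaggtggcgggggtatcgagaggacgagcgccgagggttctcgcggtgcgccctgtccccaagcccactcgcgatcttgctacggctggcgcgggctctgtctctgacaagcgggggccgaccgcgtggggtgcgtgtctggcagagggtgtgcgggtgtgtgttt

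The wide peaks were mostly only somewhat longer than the threshold. Their median width was 480 bp in both libraries, and their 90th percentile was 680 bp in replicate 1 and 693 bp in replicate 2. At least 600 bp was reached by 494 and 617 of them, at least 800 bp by 102 and 164, and at least 1000 bp by 23 and 48. The widest measured 1520 bp in replicate 1 and 1980 bp in replicate 2. Replicate 2 thus held more peaks in each of these width ranges. Around the threshold the values changed little: replicate 1 had 500 shared peaks of at least 380 but under 400 bp and 387 of 400 bp to under 420 bp, with promoter shares of 72.4% and 73.1% and a median of 5 footprints in each. In replicate 2 the corresponding numbers of peaks were 496 and 429, the promoter shares were 69.6% and 71.6%, and the median was 6 footprints in each.

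Width was carried over to the other library only in part. Among all peaks at least 400 bp long, 96.6% of replicate 1 and 87.5% of replicate 2 overlapped a peak of the other library, against 79.5% and 80.5% of autosomal peaks of any width. A wide peak of the other library was overlapped by 1581 wide peaks of replicate 1 (59.0%) and by 1603 of replicate 2 (52.7%), and both shares count the same overlaps. For narrower peaks this share was lower at promoters, taken as a centre at most 1 kb from a start site. Over the nearest start it was 61.4% and 57.3% of wide peaks against 6.65% and 5.28% of narrower ones. Wholly downstream of the start it was 59.2% and 54.5% against 18.1% and 17.1%. The widest overlapping peak of the other library had a median width of 420 bp for replicate 1 and 400 bp for replicate 2. The other library's peaks covered a median of 87.2% and 82.1% of a wide peak's bases. At least 2 peaks of the other library were overlapped by 31.0% and 28.9% of wide peaks, against 1.79% and 1.64% of the narrower shared peaks. A longer interval can overlap more peaks through its length alone, and width and overlap were the values of the rule. The contrasts in overlap, here and in the next paragraph, are therefore not independent of the selection. By the deposited false discovery rates most wide peaks were unbroken in their own library, as most narrower ones were. These rates come from the same cuts and do not show whether a peak joins several clusters of cuts. Every base had a deposited false discovery rate of at most 0.001 in 93.0% and 91.5% of wide peaks, against 89.6% and 88.0% of narrower shared peaks, and several separate stretches at that rate were found in 6.20% and 7.17%, against 9.65% and 11.1%.

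Some wide peaks also overlapped a peak of their own list, which was the case for 752 (28.1%) in replicate 1 and 885 (29.1%) in replicate 2, against 1.61% and 1.94% of narrower shared peaks. The overlapped peaks had a median width of 300 bp in both libraries. Such wide peaks are not separate regions. Without them 1926 and 2155 wide peaks remained, with promoter shares of 77.5% and 74.8% and 1.11 and 1.22 footprints per 100 bp beside the values for all wide peaks given next.

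Promoters held most wide peaks. The centre of 77.1% of wide peaks in replicate 1 and 74.6% in replicate 2 lay at most 1 kb from where a protein-coding gene starts, a mean of 75.9% ± 1.77 (SD, n = 2). Among shared peaks under 400 bp the shares were 40.5% of 36448 and 40.4% of 36089. The median distance from centre to nearest start was 370.5 and 410 bp for wide peaks, against 3982 and 4058 bp for narrower ones. Introns held 9.52% and 10.3% of wide peaks, against 26.2% and 26.1% of narrower ones. Intergenic sequence held 8.92% and 10% (304 peaks), against 27.9% and 28.0%. The share in exons away from promoters was similar in both sets, at 4.41% and 5.10% of wide peaks and 5.37% and 5.44% of narrower ones. The promoter share of wide peaks thus lay well above that of narrower ones in both libraries, and the libraries differed from each other by much less.

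**Figure D1:**
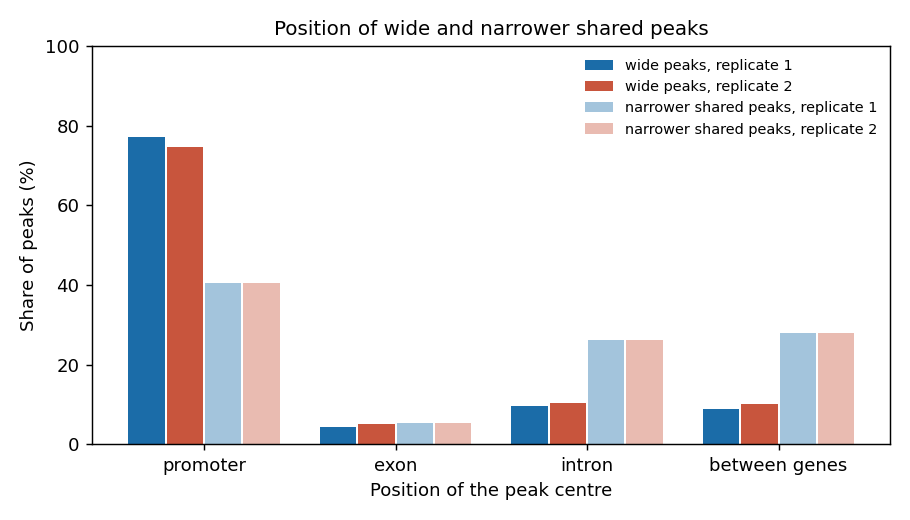
Share of peaks (%) by the position of the peak centre, for wide and narrower shared peaks of each library. Promoters hold 77.1% and 74.6% of wide peaks and 40.5% and 40.4% of narrower shared peaks.

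Wide promoter peaks reached into the transcribed side of the start site. Their centres lay a median of 99 bp downstream of the nearest start in replicate 1 and 98 bp downstream in replicate 2, whereas narrower promoter peaks were centred at -17 bp and -18 bp. The centre was downstream in 65.6% and 65.7% of wide promoter peaks, against 40.6% of narrower ones in both libraries. A centre over 200 bp downstream was found for 39.8% and 40.3%, against 22.7% and 22.6%. Wide peaks were downstream more often than narrower ones also among promoter peaks of like signal. In the lowest quartile of signal the shares were 76.4% of wide and 59.97% of narrower peaks in replicate 1, and 74.1% and 59.8% in replicate 2. In the highest quartile they were 26.4% and 19.8%, and 28.1% and 20.2%.

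The wide promoter peaks fell into groups by whether they held the start site itself. The nearest start lay inside 55.9% of them in replicate 1 and 54.2% in replicate 2. Another 35.7% (738 peaks) and 36.0% (818 peaks) lay wholly downstream of it, against 25.7% and 25.5% of narrower promoter peaks. Only 8.42% and 9.74% lay wholly upstream, against 18.8% and 19.5% of narrower ones. Of the wide peaks wholly downstream, 63.1% and 55.5% had another peak of their own list over the start. Among narrower ones the shares were 55.5% and 56.1%, so the libraries did not share a direction here. The peak over the start could overlap the downstream one. Bidirectional promoters did not stand out, since starts on both strands lay near 7.55% and 7.98% of wide promoter peaks and 9.88% of narrower ones in both libraries.

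**Figure D2:**
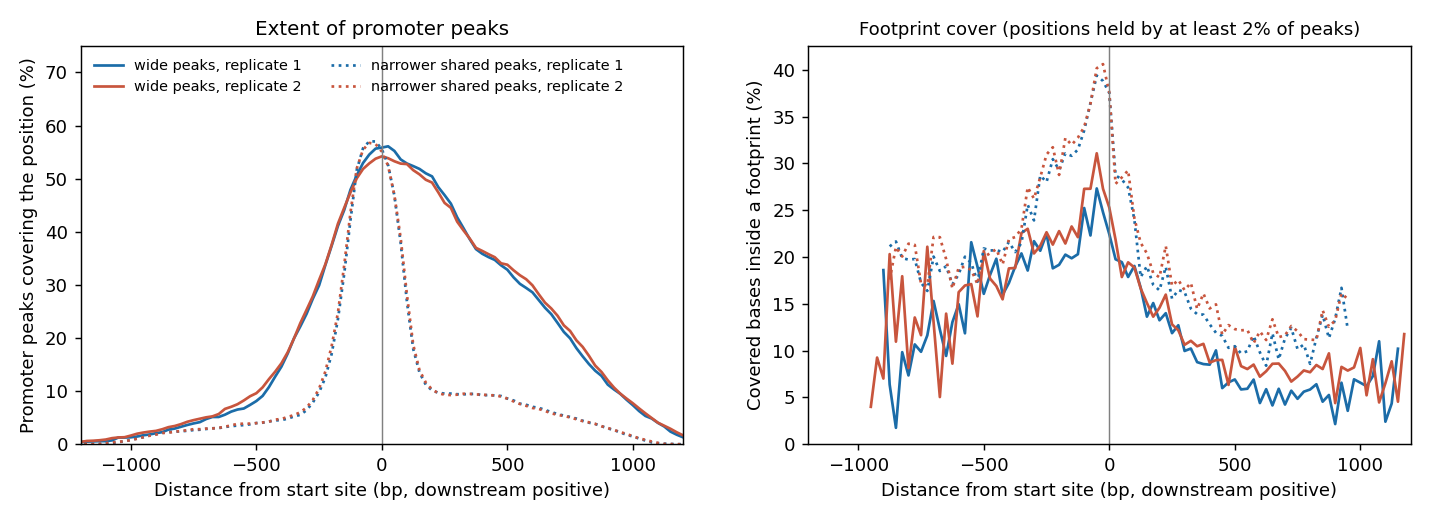
Left, share of promoter peaks (%) that cover each distance (bp) from the nearest start site, and right, share of the covered bases (%) inside a footprint, for wide and narrower shared peaks of each library. In replicate 1, 35.9% of wide and 9.20% of narrower promoter peaks cover the base 400 bp downstream, while footprints take up 22.4% and 37.5% of the covered bases at the start itself.

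A wide peak was not a strong peak at promoters. The authors' signal value of a peak is in a unit that is not stated, so it is compared only within a library. Over all positions, the median signal was 2.07 for wide and 2.10 for narrower shared peaks in replicate 1, and 1.89 and 1.74 in replicate 2. At promoters the medians were 2.17 and 3.97 in replicate 1 and 1.96 and 3.46 in replicate 2, lower for the wide peaks in both libraries. This gap depended on position. Over the start the medians were 2.66 and 5.87 in replicate 1 and 2.40 and 5.21 in replicate 2. Wholly upstream they were 2.36 and 2.90, and 2.20 and 2.62. Wholly downstream wide peaks were not lower, at 1.79 and 1.76, and 1.60 and 1.55. Away from promoters the order was the reverse, with 1.80 and 1.69 in replicate 1 and 1.75 and 1.36 in replicate 2. Only 7.70% and 7.05% of wide promoter peaks reached the highest quartile of signal among shared promoter peaks, while 30.5% and 29.3% were in the lowest.

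Footprints were more numerous in a wide peak but more thinly spread. The median number per wide peak was 6 in replicate 1 and 7 in replicate 2, against 3 in narrower shared peaks of both libraries, and the highest was 23 and 32. Per 100 bp, wide peaks held 1.10 and 1.21 footprints, a mean of 1.16 ± 0.073 (SD, n = 2), against 1.54 and 1.57. In the median wide peak, footprints took up 12.3% and 14.5% of the bases, against 23.0% and 23.6% in the median narrower one. No footprint at all was listed in 411 wide peaks of replicate 1 (15.3%) and 311 of replicate 2 (10.2%), against 7.54% and 5.94% of narrower peaks. A footprint of a wide peak overlapped one of the other library in 61.6% and 55.7% of cases, against 70.1% and 67.3%.

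Footprints differed with the position of a promoter peak, in wide and narrower peaks alike. Wide peaks that held the start site had 1.45 and 1.54 footprints per 100 bp and a median of 8 in both libraries, and narrower ones 1.95 and 1.94 per 100 bp. Wide peaks wholly downstream had 0.58 and 0.71 per 100 bp and medians of 2 and 3, and narrower ones 0.98 and 1.08 per 100 bp. No footprint was listed in 32.8% and 22.6% of the wide downstream peaks, against 30.0% and 26.2% of the narrower ones, with no common direction in the libraries. Median signal moved with position, at 2.66 and 2.40 for wide peaks over the start and 1.79 and 1.60 for wide peaks downstream, and its part in the difference was not tested. Among promoter peaks in the lowest quartile of signal, wide peaks held 0.53 footprints per 100 bp in replicate 1 and narrower ones 0.74, and 0.72 and 0.89 in replicate 2. In the highest quartile the values were close, with 2.18 and 2.16 in replicate 1 and 2.09 and 2.10 in replicate 2. Away from promoters wide peaks held fewer than narrower ones also in the highest quartile, with 1.63 and 1.80 in replicate 1 and 1.63 and 1.73 in replicate 2.

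**Figure D3:**
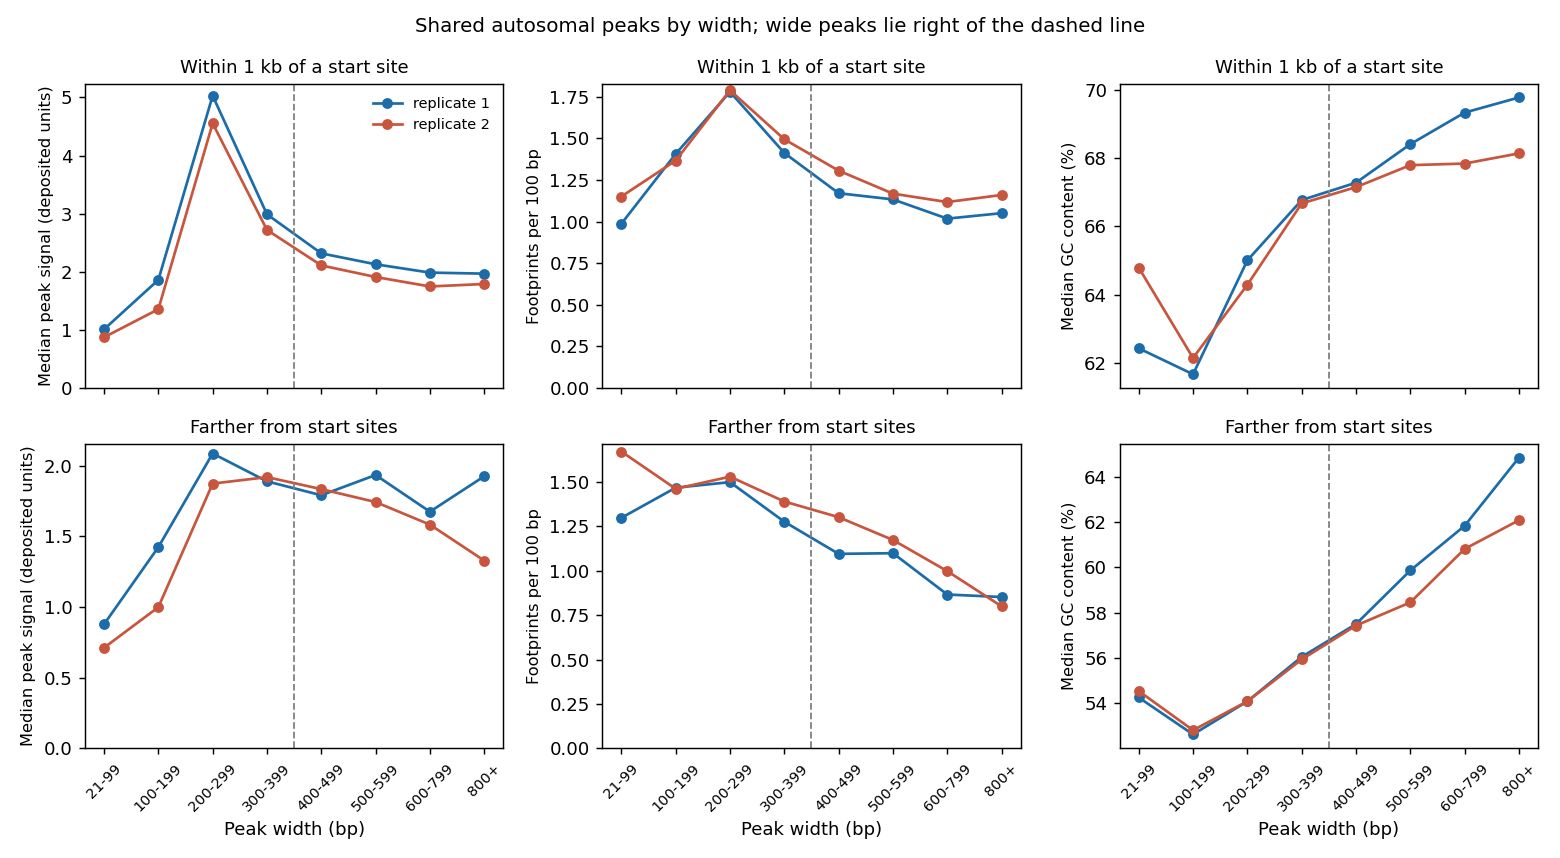
Median peak signal (deposited units), footprints per 100 bp and median GC content (%) by peak width (bp), for shared peaks at promoters (top) and farther away (bottom) in each library, with wide peaks right of the dashed line. At promoters the signal is highest at 200 to under 300 bp, at 5.03 and 4.55, and lies near 2 in the widest class, while GC content goes on rising with width.

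In sequence the wide peaks were GC-rich. Their median GC content was 66.5% in replicate 1 and 65.9% in replicate 2, against 57.0% for narrower shared peaks of both libraries. They held a median of 8.48 and 8.00 CpGs per 100 bp, against 3.21 and 3.23. A CpG-rich sequence, taken as a GC content of at least 50% with an observed over expected CpG ratio of at least 0.6, was found in 75.7% and 72.1% of wide peaks and 36.8% and 36.5% of narrower ones. At promoters alone the shares were 87.0% and 85.0% against 74.95% and 74.6%. Away from promoters they were 37.7% and 34.1% against 10.9% and 10.7%, so the wide distal peaks were also richer in CpG than narrower distal ones. Wide distal peaks also lay nearer to a start, at a median of 10668.5 and 9655 bp against 20690 and 20797.5 bp. The part of this distance in the CpG content was not tested.

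Sequence motifs were sought on both strands in the 300 bp around each peak centre, as exact letters or, for CTCF, by a consensus, and no searched sequence contains another. A match is a description and not a site of binding, and in a wide peak the window is only its middle. CTCF, the protein of insulators and chromatin loops, stood out by its rarity. Its motif was in 0.82% and 1.95% of distal wide peaks of replicates 1 and 2, against 13.2% of narrower distal peaks in both libraries. The low share held at each level of GC content. At under 50% GC it was 1.82% of 55 wide peaks and 0 of 70, against 16.6% and 15.5% of narrower ones. At 50 to 60% GC it was 0.70% and 2.89% against 13.5% in both, and at 60% or more 0.74% and 1.25% against 6.72% and 8.48%. The 0 of 70 allows a share above 0, and the groups at higher GC content held 271 to 380 wide peaks. The low share began below the threshold: among distal peaks of 300 bp to under 400 bp it was 1.83% and 2.71%, and at 200 bp to under 300 bp 12.9% and 10.3%. At 100 bp to under 200 bp it was 16.5% and 18.2%. Under 100 bp the libraries differed, with 2.47% in replicate 1 and 16.4% in replicate 2.

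The letters GGGCGGG, bound by the SP and KLF zinc finger factors, were in 27.1% and 26.8% of distal wide peaks against 10.8% and 10.6% of narrower distal ones. These letters are all G or C, and their share rose with GC content. At under 50% GC it was 7.27% and 12.9% against 3.49% and 3.40%. At 50 to 60% GC it was 16.1% and 13.7% against 7.94% and 7.63%, and at 60% or more 42.8% and 45.5% against 33.4% and 32.9%. At promoters they were as frequent in wide as in narrower peaks, at 46.1% and 46.0% against 46.7% and 46.4%. The AP-1 letters TGANTCA were in 5.56% and 5.58% of distal wide peaks against 8.91% and 8.88%, and the RUNX letters TGTGGTTT in 3.59% and 4.41% against 5.23% and 5.21%. RUNX factors act throughout T cell development. The E-box CAGCTG, a motif of E proteins, differed little, at 29.1% and 29.8% against 27.3% and 27.5%. Motifs of several other promoter factors were less frequent in wide than in narrower promoter peaks. The ETS letters CCGGAAGT were in 3.87% and 3.66% against 6.94% and 6.91%, the NRF1 letters GCATGCGC in 2.47% and 2.34% against 4.86% and 4.88%, and the CRE letters TGACGTCA in 1.31% and 1.54% against 3.21% and 3.15%. The YY1 letters AAGATGGCG were in 1.98% and 1.32% against 3.01% in both libraries, and the NF-Y letters CCAATCAG in 3.34% and 2.38% against 4.93% and 5.20%. The E2F letters GCGGGAAA, of a factor of the cell cycle, were about as frequent in wide promoter peaks, at 2.27% and 1.94% against 2.13% and 2.19%. In distal peaks the TCF7 and LEF1 letters CTTTGATN were in 5.23% and 3.89% against 4.87% and 4.96%, and the GATA letters AGATAAG in 2.61% and 2.33% against 3.41% and 3.39%, so TCF7 and LEF1 had no common direction in the libraries.

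Joined across libraries, the wide peaks formed 3934 regions, of which 1467 (37.3%) were wide in both, 1069 only in replicate 1 and 1398 only in replicate 2. Of the 1467, 1166 (79.5%) lay at promoters and 301 were distal. These 1467 are called loci here. The width and footprints given for a locus are those of its widest peak in each library. Other wide peaks of the same locus are left out of these values. The median absolute log2 ratio of these widths between libraries was 0.15, and 107 loci had the same interval in both.

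The widest loci by the mean of both libraries lay at and near genes of varied function. At Nr3c1, which encodes the glucocorticoid receptor, a hormone receptor to which thymocytes respond, the promoter peak was 1340 bp wide in replicate 1 and 1440 bp in replicate 2, with 23 and 21 footprints and a signal of 4.67 and 3.70. It was long and well filled with footprints in both libraries. The Foxp1 promoter peak was 920 and 1480 bp wide with 7 and 12 footprints, and the peak at Stk24, a serine/threonine kinase gene, 860 and 1640 bp with 14 and 25. At Whrn, which encodes a scaffold protein of sensory hair cells, the widths were 1040 and 1160 bp. At Il3ra, which encodes a receptor subunit for interleukin 3, they were 920 and 1240 bp, and at Atxn1 920 and 1220 bp. At Plekha7, which encodes a protein of cell junctions, replicate 1 was the wider, with 1520 bp and 23 footprints against 680 bp and 13. Over the 1467 loci, wide in both libraries by definition, the median signed log2 ratio of widths was 0. The wider values of replicate 2 at several loci thus did not hold for this set as a whole. It leaves out the regions wide in 1 library only, of which replicate 2 had 1398 and replicate 1 had 1069.

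The largest differences between libraries in the width of the widest peak were found at Ankrd13d, Rev3l, Zfp703, Slc25a1 and a locus shared by D930048N14Rik and N4bp3. Rev3l encodes the catalytic subunit of a translesion DNA polymerase. The widest peak at its promoter measured 460 bp in replicate 1 and 1580 bp in replicate 2, a log2 ratio of 1.78. That peak held 11 footprints in replicate 1 and 32, the most of any wide peak, in replicate 2. The Rev3l locus held 2 wide peaks in replicate 1 and 3 in replicate 2, so the ratio does not compare the whole accessible stretch. By the widest peak, Zfp703 measured 1180 and 460 bp, Slc25a1 400 and 1057 bp, and the D930048N14Rik and N4bp3 locus 400 and 1040 bp. These loci also held unequal numbers of wide peaks in the libraries.

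**Figure D4:**
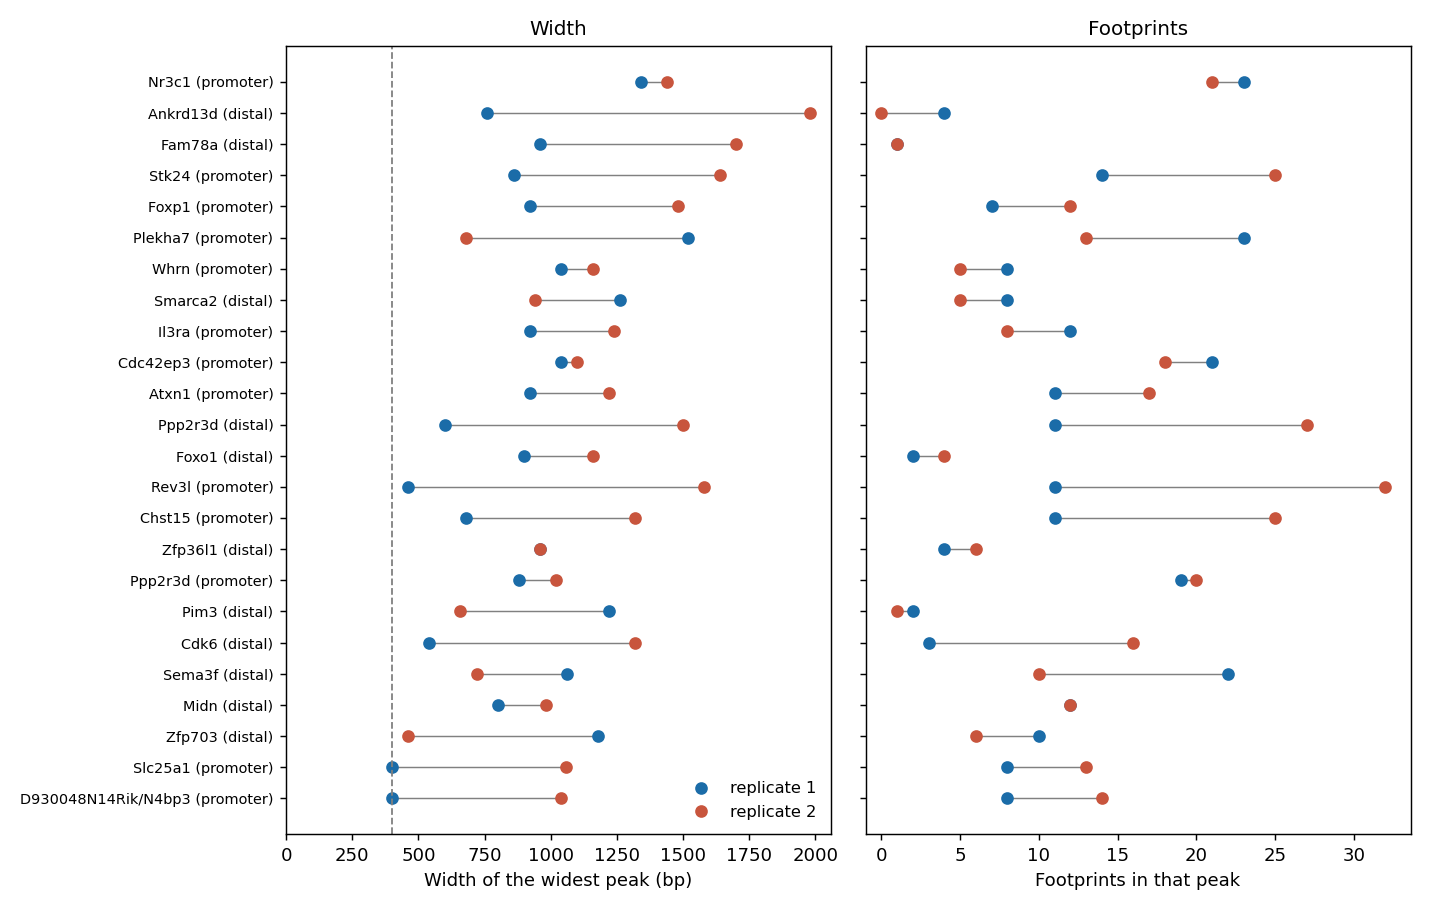
Width (bp, left) of the widest peak at each named locus and the number of footprints in that peak (right), with 1 point per library and the 400 bp threshold dashed. Nr3c1 measures 1340 and 1440 bp, while Rev3l measures 460 and 1580 bp and Plekha7 1520 and 680 bp.

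Loci with many footprints were found at Cdc42ep3, Ppp2r3d, Rev3l and Chst15 besides those already named. At the Cdc42ep3 promoter, of a gene for an effector of the GTPase Cdc42, widths of 1040 and 1100 bp held 21 and 18 footprints. At the Ppp2r3d promoter, of a gene for a regulatory subunit of protein phosphatase, 880 and 1020 bp held 19 and 20, with a signal of 8.40 and 9.41. A distal locus nearest to Ppp2r3d measured 600 and 1500 bp with 11 and 27 footprints, and the Chst15 locus 680 and 1320 bp with 11 and 25. At Cdc42ep3 the narrower library held more footprints, and at the others the wider one did.

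Among the distal loci, footprints ranged from none to many at like widths. The locus nearest to Ankrd13d, 8176 bp away inside an annotated intron, measured 760 bp in replicate 1 with 4 footprints and 1980 bp in replicate 2 with 0. At Fam78a, 1782 bp from the start, 960 and 1700 bp held 1 footprint in each library. The locus 25436 bp from Sema3f, which encodes a secreted guidance protein, measured 1060 and 720 bp and held 22 and 10. The Maml3 locus, whose sequence is shown above, measured 900 and 700 bp and held 14 and 17. Smarca2, which encodes an ATPase of the SWI/SNF chromatin remodeller, had a locus of 1260 and 940 bp with 8 and 5 footprints at 1382 bp from its start. Next to Foxo1, a forkhead factor needed for T cell homing, 900 and 1160 bp held 2 and 4 at 1355 bp. Next to Zfp36l1, which encodes an RNA-binding protein that shortens the life of mRNAs, 960 bp in both libraries held 4 and 6 at 1078 bp. At Cdk6, which encodes a kinase of the G1 phase, a distal locus measured 540 and 1320 bp with 3 and 16 footprints, and at Pim3 one of 1220 and 658 bp held 2 and 1. Several of these loci lay just past the 1 kb used to define a promoter.

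Some genes had several loci in their span and 10 kb on each side. Actg1, which encodes cytoplasmic gamma actin, and Fam78a had 4 each, 25 genes had 3 and 138 had 2. Myc, a transcription factor of cell growth, had 3 loci, all at its start sites, with widths of 760 and 600, 600 and 720, and 440 and 500 bp and with 11 and 12, 8 and 7, and 2 and 1 footprints in replicates 1 and 2. The 3 loci of Pim1, a kinase of cytokine signalling, were 440 to 640 bp wide. Prrt2, Maz and Gm42742 are neighbours that share their 3 loci, and Ado and Marcks also had 3. Gm20388 had 4, but its annotated span of 4434882 bp runs over many other genes.

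Across genes, 1976 of 20780 autosomal protein-coding genes (9.51%) had a wide peak at a start site in replicate 1, 2140 (10.3%) in replicate 2 and 1276 (6.14%) in both. Of the 11311 genes with a shared peak of any width at a start in both libraries, 11.3% had a wide one in both. The wide peaks of a gene need not be the same in both libraries: they overlapped in 1206 of the 1276 genes. The gene lists below were not tested for enrichment, and their counts are set beside these shares.

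Widths given for both libraries below are of wide peaks that overlap. Of 22 chromatin regulators on autosomes, 10 were wide in both libraries, and their peaks overlapped in all 10. Chd4, the ATPase of the NuRD complex, measured 871 and 1000 bp with 6 and 7 footprints, and Tet3, which oxidises methylcytosine, 800 and 620 bp with 11 and 14. The DNA methyltransferase gene Dnmt3a measured 660 and 460 bp, and Brd2, a reader of acetylated histones, 660 and 620 bp. Of 25 T lineage transcription factors, 8 were wide in both libraries, 7 of them with overlapping peaks, and 5 in 1. Satb1, an organiser of chromatin in thymocytes, measured 720 and 840 bp with 4 and 9 footprints, and Lef1, a factor of the TCF family, 440 and 600 bp with 9 and 11. Tcf12, an E protein, measured 578 and 700 bp, and Gfi1, a repressor of early lymphoid cells, 480 and 440 bp at one of its loci. At Fli1, an ETS factor, the peak was 192 bp in replicate 1 and 1360 bp in replicate 2, so it was wide in 1 library only.

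Of 27 genes that respond to the antigen receptor or stress, 8 were wide in both libraries. Fos and Jun, partners in the AP-1 factor, were of like width but differed in footprints: Fos measured 540 bp in both libraries with 14 footprints in each, and Jun 560 and 600 bp with 0 in each. Signal was 3.48 and 3.97 at Fos and 1.82 and 1.39 at Jun. Zfp36l1 measured 460 and 500 bp and Jund 480 and 440 bp. Among cell cycle genes, 5 of 22 were wide in both. Cdkn1a, which encodes the inhibitor p21 of cyclin-dependent kinases, measured 569 and 880 bp with 0 footprints in each library, and its relative Cdkn1b 520 and 460 bp with 16 and 11. These inhibitors differed in footprints as Fos and Jun did, with signal of 1.08 and 0.96 at Cdkn1a and 6.11 and 6.87 at Cdkn1b. The Cdkn1a locus was centred 740 bp downstream of the nearest start. How far position or signal goes with these differences was not tested.

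Of 20 RNA splicing genes, 4 were wide in both libraries, 3 of them with overlapping peaks, as at Hnrnpa2b1 with 540 and 520 bp. Of 16 housekeeping genes, 3 were wide in both, with the chaperone gene Hsp90ab1 at 640 bp in each library and Eef1a1, a translation elongation factor gene, at 460 and 560 bp, while Actb, Gapdh, Tuba1b and Hspa8 were wide in replicate 2 only. Of 18 replication-dependent histone genes, Hist2h2ac and Hist3h2ba were wide in both. Of 28 cytosolic ribosomal protein genes, all with a shared peak in both libraries, 2 were wide in each library. Only Rpl7 was wide in both, at 400 and 620 bp. This 3.57% stands beside 6.14% over all genes and 11.3% over genes with a shared peak, and rests on 1 gene.

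Counts for cell type genes were small, so each share rests on few genes. Of 28 genes of T cells and thymocytes, 24 had a shared peak at a start in both libraries. Only Satb1 was wide there in both, and Cd247 and Cd8b1 in 1. Satb1 alone was 4.17% of the 24, against 11.3% over all genes with a shared peak in both. At the start of Cd8b1, a coreceptor gene, the peak was 240 bp in replicate 1 and 400 bp in replicate 2. Its signal was 8.63 and 8.77, so a strong peak at a T cell gene could be narrow. A distal locus 2283 bp from the Cd8b1 start was wide in both libraries, at 440 and 840 bp. Of 9 thymic epithelial genes, Ccl25, which encodes a chemokine that draws T cell progenitors, was wide in both at 500 and 420 bp with 0 footprints in each. Of 6 myeloid genes only Cebpb was wide in both, at 940 and 492 bp. None of 6 B cell, 5 fibroblast, 5 adipocyte, 4 endothelial, 2 erythroid or 4 hepatocyte genes was wide in either library. A shared peak of any width was found in both libraries at 1 of 6 B cell genes and at 0 of 4 hepatocyte genes, against 24 of 28 for T cells. Over all autosomal protein-coding genes the count was 11311 of 20780. The T cell genes without one were Cd2, Cd4, Dntt and Trat1. Genes with a shared peak were also 4 of 9 for thymic epithelium, 3 of 5 for fibroblasts, 2 of 5 for adipocytes, 2 of 4 for endothelium, 1 of 6 for myeloid cells and 1 of 2 for erythroid cells.

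**Figure D5:**
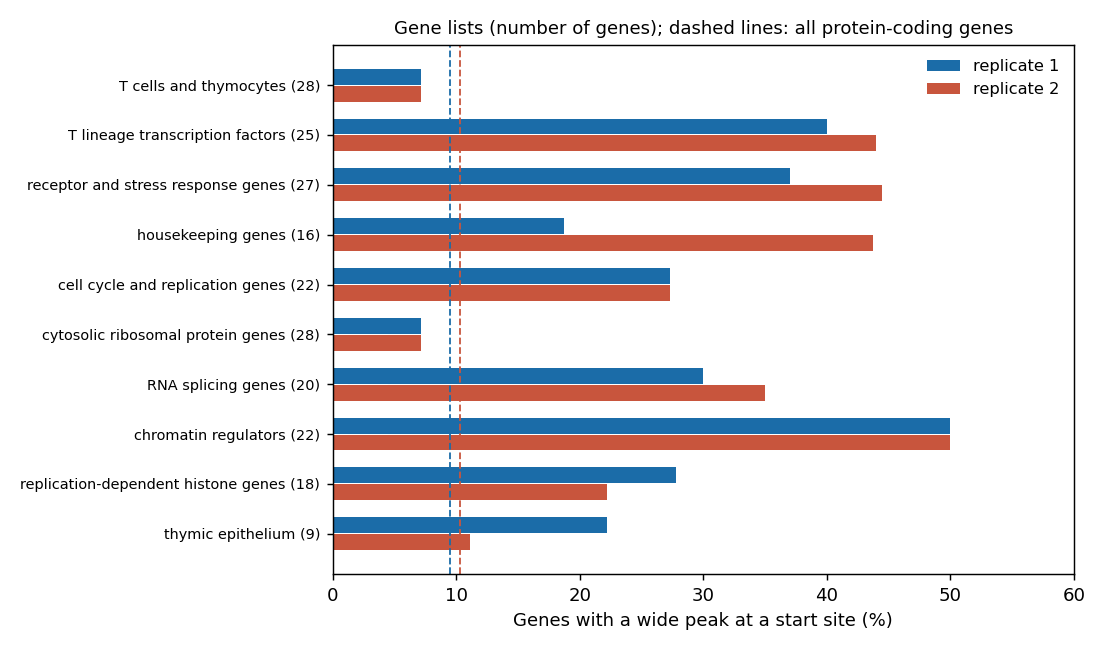
Share of each gene list (%) with a wide peak at a start site, with 1 bar per library, the number of genes in brackets and dashed lines for all autosomal protein-coding genes (9.51% and 10.3%). Chromatin regulators have 11 of 22 genes in each library, T lineage transcription factors 10 and 11 of 25, and housekeeping genes 3 and 7 of 16.

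The wide peaks were spread over all 19 autosomes. Their share of peaks ran from 4.21% on chromosome 1 to 6.56% on chromosome 19 in replicate 1, and from 4.69% on chromosome 1 to 7.26% on chromosome 12 in replicate 2. Per megabase they were most frequent on chromosome 11, at 1.90 and 2.41, and least on chromosome 1, at 0.68 and 0.72. Chromosome 1 thus had the lowest share in both libraries, and the highest share was on different chromosomes.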

How the data were processed

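Peaks, footprints and runs of false discovery rates were deposited per library on mm10. The sources used here do not give the peak caller, the aligner or the read depth, so no counting interval can be given. The authors' peak signal is in an unstated unit. The deposited q-value runs were read at a maximum of 0.001, and the deposited footprint score is the constant 0.01, so only positions were used. The shorter of each library's peak lists was taken, by its number of rows. Positions came from GENCODE vM21 basic and sequence from GRCm38, with Python 3.11.15, pandas 2.3.3, numpy 2.4.6 and pysam 0.24.0. The overlap code was tested on simulated data. No test was run, and values are given per library or as a mean and SD over both.

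A locus is a union of overlapping wide peaks with at least 1 from each library. Named were the 10 widest loci, the 5 others with the most footprints, the 10 widest distal ones, the 10 genes with the most loci, the 5 with the largest width ratio and up to 4 genes per list. Some of these are not reported here. Sequences came from the widest loci with an exon-free window of 300 bp common to both libraries, which may lie outside those sets (Maml3). Genes named as wide in 1 library (Fli1, Cd8b1, Cd247, Actb, Gapdh, Tuba1b, Hspa8) lie outside this rule and were picked after their values were seen. Members and lists were chosen with earlier results of these data known. Alternatives were other thresholds, lists, overlaps and windows. Values by signal, by GC content and without peaks that overlap their own list were added after seeing the data.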

Additional observations from a re-analysis of the deposited data

How the results depend on the processing

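No paired analysis was possible because the 2 libraries form only 1 group. Depth is unknown, so how far it sets width or footprint number was not tested. Besides leaving out a library, 16 of 42 values stayed the same and 26 moved. A number of peaks counted as the same within 1.5 times the main one, and every other value within 1 SD of it. Values are means of both libraries. At 300 bp or more, 7096.5 peaks were wide, 63.0% overlapped a wide one of the other library, 71.1% lay at promoters, the median was 5.5 footprints with 1.28 per 100 bp, GC was 64.9%, and 20.9% of genes had one. At 500 bp or more these were 1267.5 peaks, 47.2%, 77.9%, GC 67.1% and 4.68% of genes. The longer list gave 4365.5 peaks, 65.8% at promoters, 5 footprints, 0.996 per 100 bp, GC 64.2% and 12.7% of genes. Joining peaks within 20 bp gave GC 65.7% and 11.1% of genes. A promoter window of 500 bp gave 57.7% at promoters and 7.85% of genes, and one of 2500 bp 82.5% and 10.6%. With footprints of both libraries only, the median was 3, with 0.676 per 100 bp. The cause of these shifts was not tested beyond each setting's own construction. Leaving out each library in turn gave 2678 to 3040 peaks, 52.7 to 59.0% overlapping a wide one, 74.6 to 77.1% at promoters, 6 to 7 footprints, 1.10 to 1.21 per 100 bp, GC of 65.9 to 66.5%, and 9.51 to 10.3% of genes.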
